A study of Oryza sativa Japonica Group with 17 samples.

Results

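A set of 9 genes that make, inactivate or perceive gibberellin were followed in rice seedlings labelled as mutant for the paired copies of the chromatin remodeller DDM1. They were taken by locus identifier for their known bearing on plant height, and all 9 were present among the 55986 loci of the expression table. They comprise the synthesis enzymes GA20ox1, GA20ox2 (SD1) and GA3ox2 (D18), the inactivating enzymes GA2ox1, GA2ox3 and EUI, and the signalling proteins GID1, GID2 and SLR1. A second list held 22 other loci of the pathway.

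The series covers 17 samples, and 4 of them enter the comparison used here. These are 2 RNA-seq libraries labelled osddm1a/1b and 2 labelled Cr-DJ-1, the wild type of that mutant. Both are of the variety DongJin, and the plants were raised for 12 days on hormone-free Murashige & Skoog medium in a light/dark cycle. Leaves were harvested according to the growth protocol, whereas the tissue label reads seedling. The titles of the mutant libraries name osddm1a/1b and their genotype label names osddm1b alone. Whether the mutants trace to 1 line, how many plants were pooled and whether the repeats were grown separately the labels do not state. The p-values therefore set the gap between the genotypes only against the modelled scatter of these libraries within a genotype. That scatter may be technical. In leaves or seedlings taken whole, fewer cells that express a gene and less RNA per cell cannot be told apart.

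Gibberellins are diterpenoid hormones that promote stem and leaf elongation. A series of cyclases and P450 enzymes builds the precursor, GA 20-oxidases and GA 3-oxidases turn it into the active hormone, and GA 2-oxidases and the P450 enzyme EUI remove it. The active hormone is bound by the receptor GID1, which then takes hold of the DELLA protein SLR1, a repressor of growth, and the F-box protein GID2 marks SLR1 for degradation. SD1 is the gene whose loss gave the semidwarf rice of the green revolution, and loss of D18 also dwarfs the plant.

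The authors' deposited table gives 1 mean normalized count, 1 log2 fold change, its standard error and p-values per locus. The whole reads behind these values in each of the 4 libraries could be recovered for all 9 members. Within the range searched, only 1 set of whole numbers gave the deposited mean, fold change and standard error. The recovered reads of all solved loci summed to 27278569 and 21916391 in the wild-type libraries (A and B) and to 28787859 and 22261954 in the mutant libraries (A and B). Which repeat in the labels each letter stands for is unknown. Dividing the reads by the authors' size factors gives the normalized reads printed below. They are not corrected for gene length, so levels are compared between libraries and never between genes. Fold changes are given as mutant over wild type on the log2 scale. That direction is the likely reading, since the table is named for the wild type before the mutant, and since OsDDM1b comes out low in the mutant under it.

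OsDDM1b, paired with its locus from general knowledge, had 720 and 740 normalized reads in the wild-type libraries and 68.4 and 65.3 in the mutant. Its log2 change in the authors' deposited table was -3.27, with an SE of 0.164 and an adjusted p of 1.27e-86. OsDDM1a had 305 and 271 normalized reads in the wild type, against 261 and 260.2 in the mutant, and its log2 change in the authors' deposited table was -0.14 (SE 0.160, adjusted p = 0.511). A lowered transcript is not required of a mutated gene, so these values leave the OsDDM1a genotype unchecked. The fall of OsDDM1b helped to set the direction of all fold changes, so its direction is no separate check of the OsDDM1b genotype. Correlations of log2(count + 1) were taken over 18187 loci with a mean count of at least 100 over the 4 libraries. They were 0.997 and 0.998 for libraries of the same genotype and 0.761 to 0.762 for different genotypes. Loci read almost only in 1 genotype can pass that filter, which can lower the values between genotypes.

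An adjusted p of 0.05 was passed by 5 of the 9 members in the authors' deposited table: GA20ox1, SD1, GA2ox3 and GID1 were lower in the mutant and GID2 was higher. The other 4, GA3ox2, GA2ox1, EUI and SLR1, did not pass. Among all 29212 loci with an adjusted p, 46.7% were called in either direction, so 5 of 9 is near the background. Falls were called at 19.1% of all loci and at 4 members, rises at 27.6% of all loci and at 1 member. The median log2 change was -0.21 over the 9 members and 0.05 over all loci with an adjusted p. At least 2-fold falls with an adjusted p under 0.05 were found at 2 members, SD1 and GA2ox3, and at 2.93% of all loci. The deposited folds are moderated towards 0, most so at loci with few reads. SD1 and GA2ox3 had mean counts of 272 and 869, whereas all loci include means down to 2.88, so the 2 shares are not matched for depth.

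**Figure D1:**
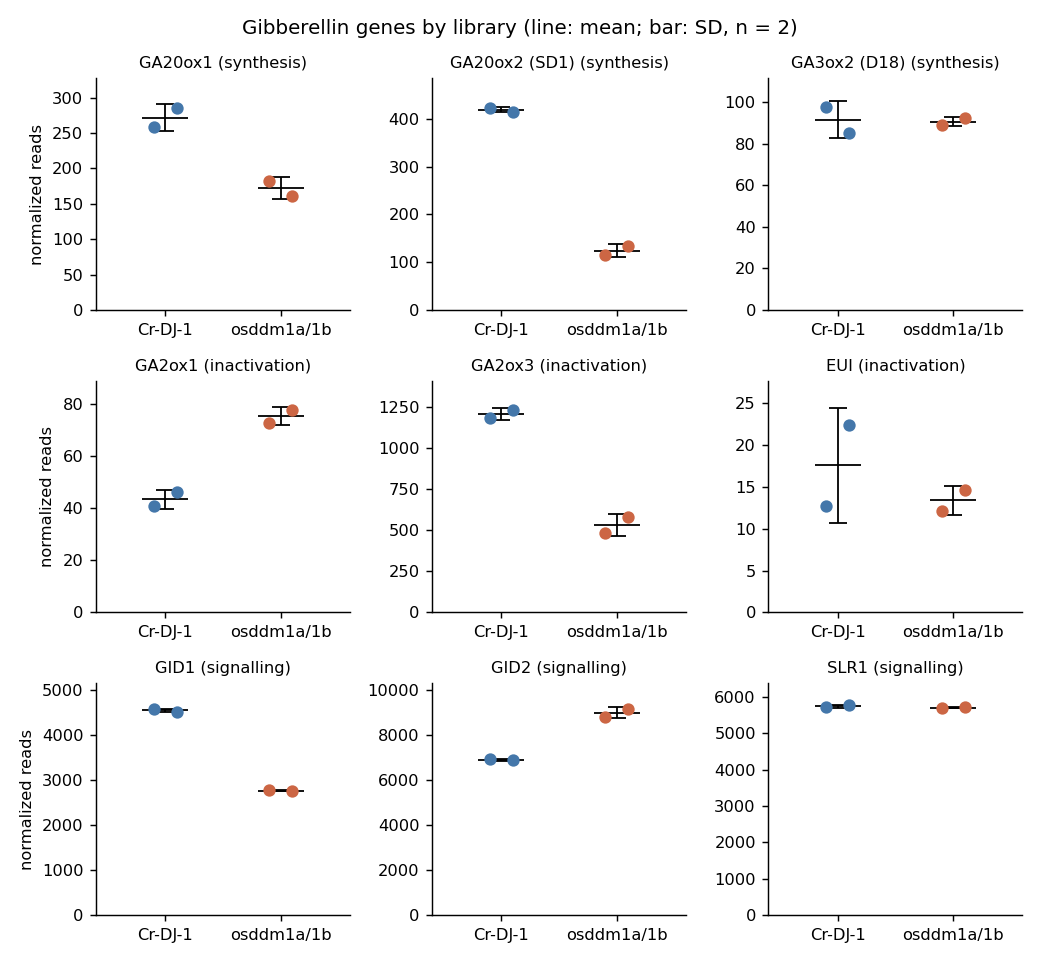
Normalized reads (vertical axes, each starting at 0) of the 9 gibberellin genes in the 2 Cr-DJ-1 libraries (blue) and the 2 osddm1a/1b libraries (orange), with the mean as a line and the SD (n = 2) as a bar. The genotypes are apart for 6 genes, and they overlap for GA3ox2, EUI and SLR1.

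Of the synthesis genes, both GA 20-oxidases fell and the GA 3-oxidase did not pass the test. SD1 (LOC_Os01g66100), a GA 20-oxidase of the elongating shoot, had 467 and 370 reads in wild-type libraries A and B, and 132 and 119 in mutant libraries A and B. Normalized, these are 423 and 415 in the wild type, against 114 and 134 in the mutant. The means were 419 ± 5.76 and 124 ± 13.9 (SD, n = 2 each), and both mutant libraries lay far below both wild-type libraries. In the authors' deposited table SD1 fell by 1.67 (SE 0.169, 95% interval -2.00 to -1.34, adjusted p = 6.31e-22), a fold of 3.18. Only 0.811% of the loci with an adjusted p had a lower change. The plain ratio of the group means, which is not moderated towards 0, gave a 3.38-fold fall.

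GA20ox1 (LOC_Os03g63970), another enzyme of the same step, had 285 and 254 reads in the wild type, against 211 and 143 in the mutant. The normalized reads were 258 and 285 against 183 and 161, with means of 272 ± 18.9 and 172 ± 15.3 (SD, n = 2 each), and the genotypes did not overlap. It fell by 0.62 in the authors' deposited table (SE 0.178, 95% interval -0.97 to -0.27, adjusted p = 0.00172), a fold of 1.53. The interval of GA20ox1 lies wholly above that of SD1, so the 2 genes of this step differed in the size of their fall. The number of SD1 reads per GA20ox1 read, a quantity that needs no size factor, was 1.64 and 1.46 in the wild-type libraries and 0.626 and 0.832 in the mutant libraries. The value of such a ratio depends on the lengths of the genes, and its change between libraries does not.

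GA3ox2 (D18, LOC_Os01g08220), which carries out the last step to the active hormone, had 108 and 76 reads in the wild type, against 103 and 82 in the mutant. After normalization these were 97.9 and 85.3 against 89.2 and 92.4. Both mutant libraries lay between the wild-type libraries, and the means were 91.6 ± 8.92 and 90.8 ± 2.23 (SD, n = 2 each). Its log2 change in the authors' deposited table was -0.01 (SE 0.252, adjusted p = 0.971). The 95% interval ran from -0.51 to 0.48, so changes in either direction of up to about that size were not excluded at this depth.

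The 3 inactivating genes did not move together. GA2ox3 (LOC_Os01g55240), a GA 2-oxidase, had 1302 and 1097 reads in the wild type, against 560 and 515 in the mutant. Normalized, the wild-type libraries held 1181 and 1231 and the mutant libraries 485 and 580.0. Both mutant libraries lay below both wild-type libraries, and the means were 1206 ± 35.9 and 532 ± 67.2 (SD, n = 2 each). The fall in the authors' deposited table was 2.24-fold (log2 change -1.16, SE 0.102, 95% interval -1.36 to -0.96, adjusted p = 1.53e-28), and 2.10% of the loci with an adjusted p had a lower change.

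GA2ox1 (LOC_Os05g06670), also a GA 2-oxidase, had 45 and 41 reads in the wild type, against 84 and 69 in the mutant. The normalized reads of 40.8 and 46.0 in the wild type, against 72.7 and 77.7 in the mutant did not overlap, with means of 43.4 ± 3.69 and 75.2 ± 3.51 (SD, n = 2 each). Its log2 change in the authors' deposited table was 0.65 (SE 0.294, 95% interval 0.07 to 1.23), and its adjusted p of 0.0568 missed the threshold. The call depends on the fit. On the recovered reads, limma-voom gave a log2 change of 0.79 with an adjusted p of 0.00187, as 1 of 6 members it called beside 67.5% of all loci it tested, and leaving out each library in turn gave 0.70 to 0.87 with adjusted p from 0.00109 to 0.0145. Recentring the authors' deposited table on the median of loci with a mean count of at least 100 gave an adjusted p of 0.0477 at a log2 change of 0.67. GA2ox1 still missed the threshold when the authors' deposited table was recentred on the median of all loci (0.60, adjusted p = 0.0814), and when its p-values were adjusted over all loci that had one (0.0805) or over loci with a mean count of at least 10 (0.0535).

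EUI (LOC_Os05g40384), a P450 enzyme that deactivates gibberellins by epoxidation and is best known from the uppermost internode, was read 14 and 20 times in the wild type and 14 and 13 times in the mutant. Normalized, these are 12.7 and 22.4 against 12.1 and 14.6, and the genotypes overlapped. The log2 change in the authors' deposited table was -0.21 (SE 0.380, 95% interval -0.95 to 0.54, adjusted p = 0.694). A plain ratio without wild-type library A was -0.75 and without wild-type library B 0.08, so the wild-type libraries set both the size and the sign. Changes of EUI within that 95% interval were not excluded at this depth.

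Among the signalling genes, the receptor gene fell, the F-box gene rose by less, and the DELLA gene did not pass the test. GID1 (LOC_Os05g33730), the soluble gibberellin receptor, had 5042 and 4024 reads in the wild type, against 3195 and 2446 in the mutant. Normalized, the wild type held 4572 and 4517 and the mutant 2767 and 2755, with means of 4544 ± 38.9 and 2761 ± 8.59 (SD, n = 2 each). The gap between the genotypes was many times the spread within either. In the authors' deposited table GID1 fell by 0.72 (SE 0.047, 95% interval -0.81 to -0.62, adjusted p = 5.92e-51), a fold of 1.64.

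GID2 (LOC_Os02g36974), the F-box subunit of the ubiquitin ligase that acts on SLR1, had 7629 and 6114 reads in the wild type, against 10161 and 8127 in the mutant. The normalized reads were 6917 and 6863 against 8800 and 9153, with means of 6890 ± 38.8 and 8976 ± 249.8 (SD, n = 2 each), and both mutant libraries were above both wild-type libraries. The rise in the authors' deposited table was 0.38 (SE 0.035, 95% interval 0.31 to 0.45, adjusted p = 5.82e-27), a fold of 1.30. In the RefSeq annotation GID2 overlaps GF14E, a gene of the 14-3-3 family, and a further entry that also carries the name GID2. The labels do not say whether the authors' counting used the strand. Reads at this locus may therefore come from any of these entries, which cannot be told apart.

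SLR1 (LOC_Os03g49990), the single full-length DELLA protein of rice, had 6301 and 5144 reads in the wild type, against 6571 and 5076 in the mutant. After normalization these were 5713 and 5774 in the wild type, against 5691 and 5717 in the mutant, with means of 5744 ± 42.8 and 5704 ± 18.5 (SD, n = 2 each). The libraries overlapped, and the log2 change in the authors' deposited table was -0.01 (SE 0.038, adjusted p = 0.859) with a 95% interval of -0.08 to 0.06. A library held 0.800 and 0.782 GID1 reads per SLR1 read in the wild type, against 0.486 and 0.482 in the mutant. GID1 reads therefore fell relative to SLR1 reads in each mutant library, whichever size factors are used. The proteins were not measured.

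**Figure D2:**
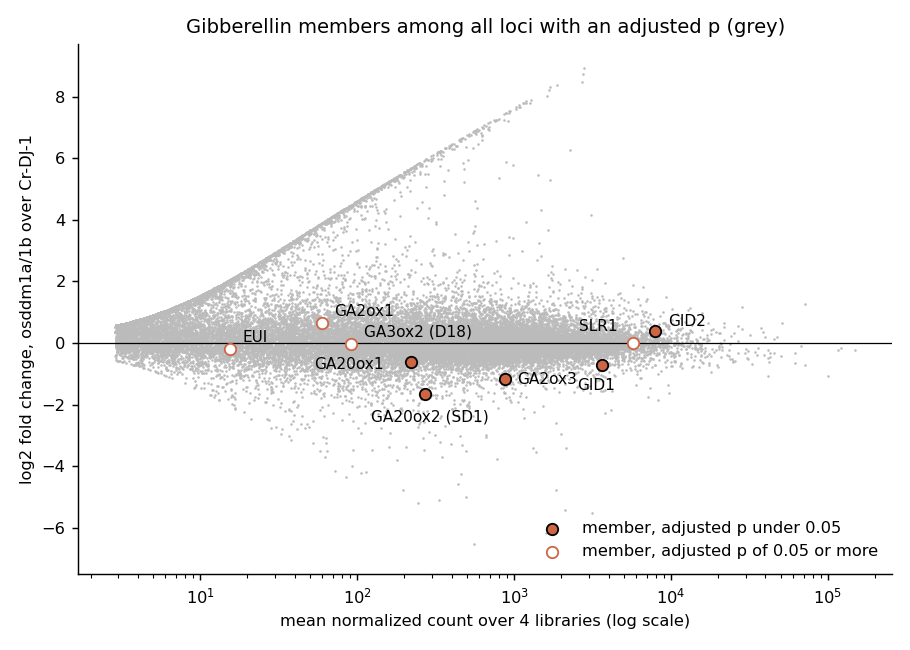
Log2 fold change (vertical axis, mutant over wild type) against the mean normalized count over the 4 libraries (horizontal log axis) for all 29212 loci with an adjusted p (grey) and the 9 gibberellin genes (circles, filled where the adjusted p was under 0.05). SD1 (-1.67) and GA2ox3 (-1.16) are the lowest of the 9 genes, and SLR1 and GA3ox2 (both -0.01) lie close to 0.

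Taken by their libraries, 6 of the 9 members had genotypes that did not overlap, with 2 above and 4 below the wild type. Across all 28924 loci with an adjusted p and recovered reads, 81.8% did not overlap, 45.5% with the mutant above and 36.4% with the mutant below. The share among the members is thus no higher than elsewhere.

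The other loci of the pathway were read to see how far the 9 genes stand for it. Of 22 loci, 18 had an adjusted p; 3 of these rose, 7 fell and 8 did not pass. Their median log2 change was -0.09. The 10 called of 18 stand beside the 46.7% called among all loci. One locus, named GA20ox3 in RefSeq, had a mean count of 0, and the other 3 had too few reads for an adjusted p.

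The early synthesis steps before GA20ox1 and SD1 were lower in the mutant. CPS1 (LOC_Os02g17780), the cyclase that commits the diterpene precursor to gibberellin, had 445 and 487 normalized reads in the wild type, against 58.9 and 83.3 in the mutant. It fell 5.86-fold in the authors' deposited table (log2 change -2.55, SE 0.187, adjusted p = 7.84e-41), more than any of the 9 members. KAO (LOC_Os06g02019), the P450 enzyme that makes the first gibberellin from ent-kaurenoic acid, had 811 and 856 normalized reads in the wild type, against 486 and 471 in the mutant. Its fall in the authors' deposited table was 1.72-fold (log2 change -0.78, SE 0.107, adjusted p = 2.8e-12).

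The steps between them, named here after their values were seen, moved by less. KS1, the second cyclase, fell by 0.26 (SE 0.085, adjusted p = 0.00713), and KO2, an ent-kaurene oxidase, by 0.24 (SE 0.071, adjusted p = 0.0022), both in the authors' deposited table.

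CYP714B2 (LOC_Os03g21400), a P450 enzyme that hydroxylates gibberellin precursors, had 184 and 204 normalized reads in the wild type, against 15.6 and 19.1 in the mutant. In the authors' deposited table it fell by 2.92 (SE 0.275, adjusted p = 3.17e-25), the lowest log2 change on either list. The plain ratio of its group means was an 11.2-fold fall. Its close relative CYP714B1, picked for comparison after the values were seen, had 52.6 and 50.5 normalized reads in the wild type, against 37.2 and 48.4 in the mutant, and a log2 change of -0.22 in the authors' deposited table (adjusted p = 0.613, SE 0.315). The other fall among the 4 with the smallest adjusted p was at LOC_Os05g34854, which has no accepted name here. It had 240.3 and 283 normalized reads in the wild type, against 53.7 and 47.3 in the mutant, and a log2 change of -2.14 in the authors' deposited table (adjusted p = 1.15e-20, SE 0.223).

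The other list held 3 rises. LOC_Os05g11810, also without an accepted name, had 1466 and 1477 normalized reads in the wild type, against 2810.2 and 2552 in the mutant, a rise of 0.86 in the authors' deposited table (adjusted p = 1.02e-36, SE 0.067). LOC_Os01g11150, likewise unnamed, had 27.2 and 26.9 normalized reads in the wild type, against 127 and 139.7 in the mutant. It rose by 1.92 in the authors' deposited table (adjusted p = 4.6e-11, SE 0.279). YAB1, a YABBY transcription factor, rose by 0.24 in the authors' deposited table (adjusted p = 0.0477, SE 0.106), a call that depends on the setting. It was lost after adjustment over all loci with a p-value (adjusted p = 0.0676) and after recentring on the median of all loci (0.127). It was kept over loci with a mean count of at least 10 (0.0447), after recentring on loci with a mean count of at least 100 (0.0282), with limma-voom (0.00194) and in its 4 fits without 1 library (0.00643 to 0.0206).

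**Figure D3:**
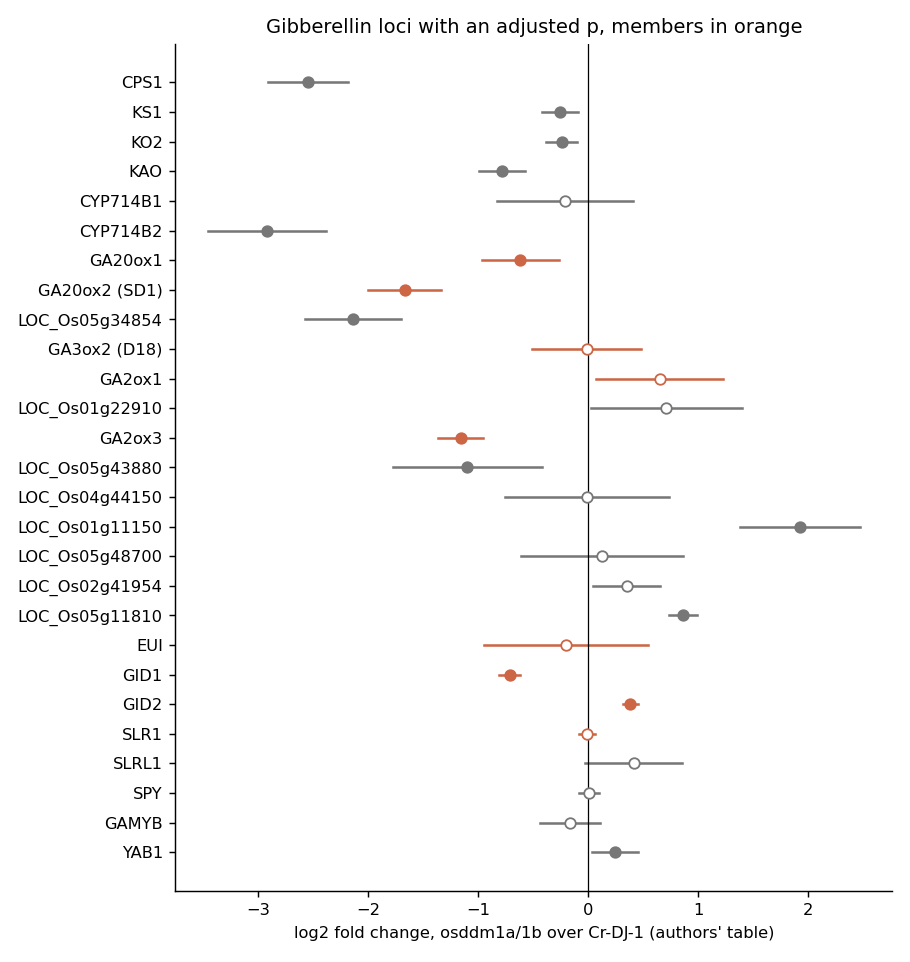
Log2 fold change (horizontal axis, mutant over wild type, with 95% intervals) of the 27 gibberellin loci that had an adjusted p, from synthesis at the top to signalling at the bottom. Members are orange and other loci grey, filled where the adjusted p was under 0.05. CPS1, CYP714B2, LOC_Os05g34854 and SD1 lie farthest to the left, and LOC_Os01g11150 farthest to the right.

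The position of the members was examined because DDM1 acts on chromatin. The 5 nearest tested loci by locus number on each side of a member, 90 in all, held 28 rises and 15 falls, or 47.8% called beside 46.7% of all loci. The median log2 change of the 10 neighbours was 0.02 at SD1, 0.15 at GA2ox3 and 0.04 at GID1, while these members fell by 1.67, 1.16 and 0.72 in the authors' deposited table. One neighbour of SD1 had a log2 change of -1.55, and the lowest neighbours of GA2ox3 and GID1 had -0.64 and -0.72. At GA20ox1 the neighbours held 4 falls and 2 rises, with a median of -0.15 and a lowest value of -0.67 beside the member's own -0.62 in the authors' deposited table.

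**Figure D4:**
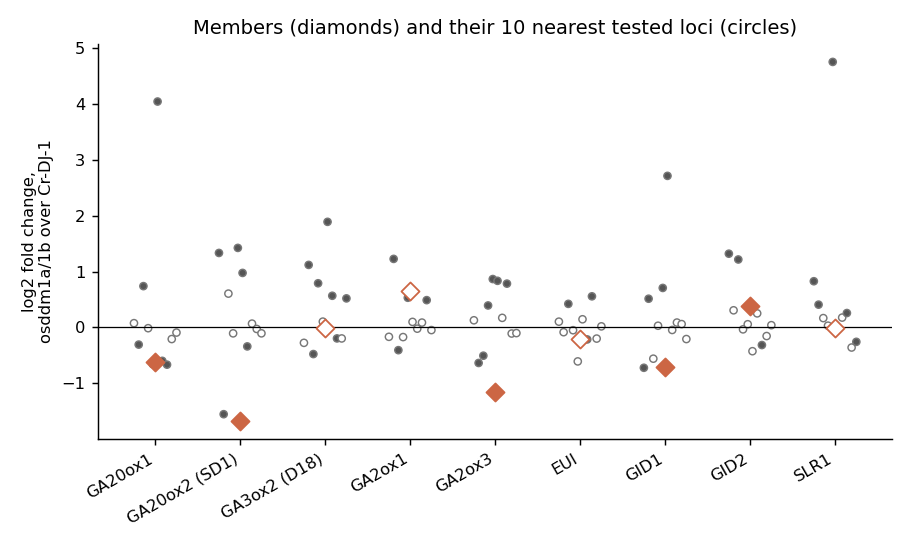
Log2 fold change (vertical axis, mutant over wild type) of each gibberellin gene (orange diamond) and of the 10 tested loci nearest to it by locus number (circles), filled where the adjusted p was under 0.05. SD1 and GA2ox3 lie below all 10 of their neighbours.

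Markers of other tissues were read in the same libraries. The 5 class I KNOX genes, transcription factors of the shoot meristem, summed to 51.7 and 42.7 normalized reads in the wild type and to 247 and 205 in the mutant. By the authors' deposited table, 4 of the 5 rose and none fell, beside rises at 27.6% of all loci with an adjusted p. These KNOX genes had few reads in a wild-type library, from 2 (OSH6) to 15 (OSH71). Their part in the changes of the gibberellin genes was not tested. The root genes Lsi1 and IRT1 did not pass the test, and Lsi2 had no adjusted p. The silicon transporter Lsi1 had 480 and 488 normalized reads in the wild type, against 488 and 490 in the mutant. IRT1, read 8 to 15 times in a library, had an adjusted p of 0.77 in the authors' deposited table. Lsi2 had 1 read in wild-type library B and 0 in the others. Of 5 green leaf loci, 2 rose and 3 fell, beside rises at 27.6% and falls at 19.1% of all loci. The chlorophyll-binding genes CAB2R and CAB1R rose by 1.62 and 1.23 in the authors' deposited table (adjusted p = 2.71e-202 and 1.07e-73). The log2 changes of the 3 that fell, for which no name was accepted here, were -0.17, -0.24 and -0.60 in the authors' deposited table (adjusted p = 1.96e-34, 5.2e-44 and 1.84e-217).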

How the data were processed

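The table deposited by the authors has no header, and its columns, identified from their values, are those of a DESeq2 results table. Without giving roles, the submitters' processing notes name TopHat, HTSeq and DESeq2, and for other steps Bowtie2 (2.1.0), Bowtie, Trimmomatic, FastQC and edgeR. The signal deposited by the authors is the mean over 4 libraries of counts divided by size factors. In the deposited log2 column the authors give fold changes moderated towards 0, and their deposited scores are the standard error and the Wald statistic. The deposited p-value is adjusted by the Benjamini-Hochberg method over 29212 loci with a mean count of at least 2.88. Neither labels nor notes name the build. The sign was turned to mutant over wild type.

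Size factors of 1.1029 and 0.8909 (wild type) and 1.1547 and 0.8879 (mutant), with a prior variance of 0.290770, were found from the deposited means, fold changes and standard errors. Whole reads per library were then searched until 1 set gave the deposited values. Below a mean count of 60 all sets were searched, and at higher means those within a range around the expected reads. Any next set had to fit at least 20 times worse. A single set was found for 99.3% of loci with a mean above 0, and these carry 95.2% of the summed mean count. Counting intervals were not needed, and intervals of fold changes are 95% normal intervals from the deposited standard error. As an alternative chosen after seeing the data, limma-voom (limma 3.58.1, R 4.3.3, loci with a mean count of at least 10) was fitted to the recovered reads with the authors' size factors. An exact permutation test of 2 against 2 libraries cannot go below 0.33, so none was run. Recovery and limma-voom were tested on simulated data. For limma-voom only a small share of the simulated loci changed, so changes as widespread as those called here were not covered.

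The 9 genes, the other lists and the tests were chosen with earlier results of these data known. All 9 members are named, and of the 22 other loci the 4 smallest adjusted p among rises and among falls. Names were checked against RefSeq (assembly ASM3414082v1) by chromosome and order of locus numbers. This held for 5 of the 9 members and 11 of the 22 other loci, and GA20ox1, GA3ox2, GA2ox1 and GA2ox3 keep the names under which they were selected. KO2, OSH1, OSH43 and IRT1 also overlap another RefSeq entry, from which some of their reads may come. Peak and small RNA lists give positions only and were not used here, since gene positions on their build were not at hand. The bisulfite and osdrm2 expression libraries were not analysed here.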

Additional observations from a re-analysis of the deposited data

How the results depend on the processing

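All 4 alternatives to the adjustment or threshold, both recentrings, limma-voom and its 4 fits without 1 library kept GA20ox1, SD1, GA2ox3 and GID1 lower, and 4 to 6 of the 9 members were called. At least 1.5-fold change left 4, without GID2, and 7588 of all 29212 loci (26%) in place of 13641. Recentring on the median of loci with a mean count of at least 100 called 6 members, with GA2ox1 added, beside 46.5% of all loci. limma-voom also called 6, beside 67.5% of its 25068 loci. Of the other pathway loci, 10 of 18 were called as reported, 7 of 18 at 1.5-fold, and 12 of 17 with limma-voom. The shares of all loci called were 46.7%, 26% and 67.5% in that order. The other settings on the deposited table called 9 to 11 of 17 to 21 tested, beside 31.2% to 50.2% of all loci tested. GA2ox1 passed the threshold after that recentring (log2 change 0.67) and with limma-voom (0.79, and 0.70 to 0.87 without each library in turn, where the plain ratio gave 0.71 to 0.88). Plain ratios without each library in turn ran from -1.88 to -1.65 for SD1, from -1.31 to -1.06 for GA2ox3 and from -0.746 to 0.0762 for EUI. The limma-voom fits without 1 library gave -1.87 to -1.64, -1.31 to -1.05 and -0.75 to 0.06, with the lone library of a genotype assumed to vary like the others. No paired analysis was possible because the recovered libraries carry no replicate number. With 2 libraries per genotype, depth limits EUI, with at most 20 reads in a library, and GA3ox2 and GA2ox1 most.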
